A study of Mus musculus with 12 samples.

Results

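The Bcl2 family of apoptosis regulators was followed in mouse lung tumors and normal mouse lung. Its members were taken by gene symbol, as the rows whose Ensembl identifier carries the names Bcl2, Bcl2l1, Bcl2l2, Mcl1, Bak1, Bok, Bid, Bad, Bcl2l11 and Bmf. Of these 10 genes, 9 had a row among the 30399 rows of the deposited table and 8 were among the 23674 genes tested. Bak1 had no matching row and was not analysed here. Bcl2l2 was below the level needed for a test. The members were chosen for what their proteins do, with earlier results of these data known.

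By the title of the series, the tumors were raised in mice by CRISPR/Cas9 mutagenesis without a virus, a method in which a nuclease guided by RNA disables chosen genes in the animal. Poly-A RNA was sequenced from 5 samples labelled normal lung and 7 labelled tumor. Tumors 1 and 7 carry the Spanish word for trachea in their titles and tumors 3, 4, 5 and 6 the word for lung, while the title of tumor 2 names no site. Tumors 3 and 4 share one title number and tumors 5, 6 and 7 another, and the labels do not say whether such a number is an animal. The targeted genes, strain, age and any treatment of the mice are not given in the sources used here, for either group. Nothing in the labels says that samples come from separate animals, so p-values measure only the spread between these samples, which may be technical.

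The family decides whether a cell under stress permeabilises its outer mitochondrial membrane. Prosurvival proteins (Bcl2, Bcl-xL from Bcl2l1, Bcl-w from Bcl2l2, Mcl-1) hold the effector proteins Bax, Bak and, by some accounts, Bok in check. BH3-only proteins (Bid, Bad, Bim from Bcl2l11, Bmf) carry stress signals to the family by binding prosurvival proteins or by engaging the effectors directly, after which cytochrome c leaves the mitochondria and caspases are activated. Lung cancers of the neuroendocrine kind are known for their dependence on Bcl2 or Mcl-1, the targets of BH3-mimetic drugs.

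Values are read counts that the authors normalized for library size, called normalized counts here, and 11126432 to 24217633 reads were assigned to genes per sample. At these depths 3 reads correspond to at most 4.85 normalized counts for a normal lung and 3.57 for a tumor, floors that cover counting error only because reads are not independent molecules. The labelled tissues carried their markers: 7 lung epithelial genes summed to between 266866 and 481545 normalized counts in normal lung and to between 481 and 2855 in tumors, and 8 neuroendocrine genes to between 196 and 330 in normal lung, with Dcx at 0 throughout, and to between 32089 and 123227 in tumors. The sum of 6 proliferation genes lay between 1065 and 2234 in normal lung and between 17086 and 41201 in tumors. Leukocyte markers, 9 of 10 listed genes, summed to 85481 to 167638 in normal lung and to 385 to 15618 in tumors, where tumor 7 was highest and the next was 4372. All 9 fell, and of the defining markers Cd3e was at 0 in tumors 1, 2 and 3. Endothelial markers summed to 59707 to 72054 in normal lung and to 766 to 4971 in tumors, again highest in tumor 7, and all 6 fell. In bulk RNA, fewer cells of a type and less RNA per cell cannot be told apart.

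Of the 8 members tested, Bok and Bid rose in tumors, Bcl2, Bcl2l1, Mcl1, Bad and Bmf fell, and Bcl2l11 passed the test in neither direction. A gene was called at an adjusted p under 0.05 in limma, a linear model with a shared spread estimate, fitted on log2(normalized count + 1) with Benjamini-Hochberg adjustment over all genes tested. By that rule 61.5% of all genes tested were called, 31.4% higher and 30.1% lower in tumor, so a called member is no rarity in this comparison. The tumor and normal lung values did not overlap for 4 members (Mcl1, Bok, Bad and Bmf), against 38.4% of all genes tested. Tumors lay above normal lung for Bok, as for 20.1% of all genes, and below it for Mcl1, Bad and Bmf, as for 18.4%. The count-based tests on whole reads of 11 samples also called 2 members higher and 5 lower, against a background of 34.9% and 26.3% in edgeR and of 30.6% and 24.7% in DESeq2. The median log2 difference was -0.70 over the 8 members and 0.04 over all genes tested.

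**Figure D1:**
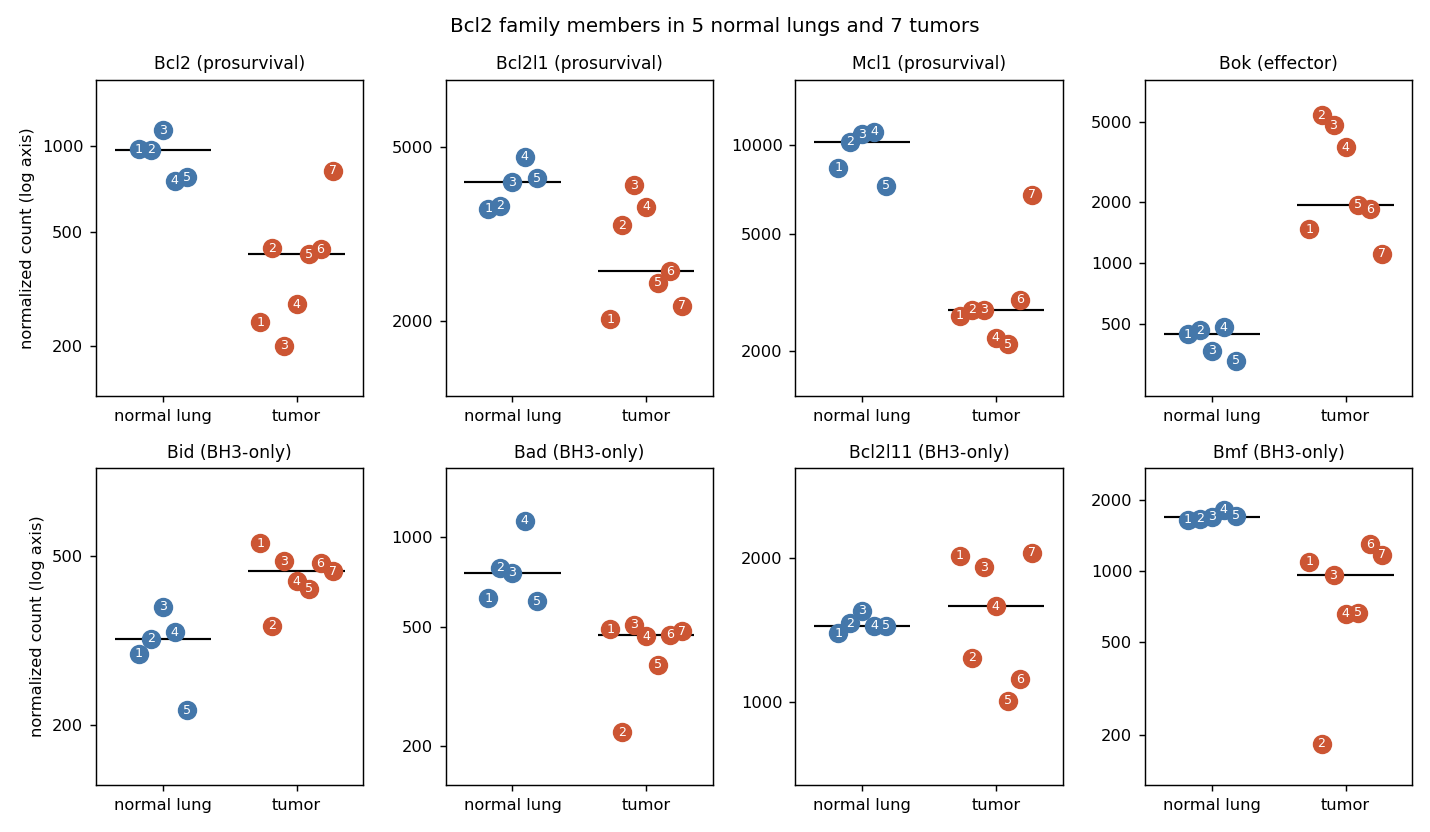
Normalized counts on a log axis for the 8 tested members in 5 normal lungs (blue) and 7 tumors (red), with sample numbers inside the points and the group median as a line. Mcl1 separates the groups with tumor 7 nearest to normal lung, Bok lies above normal lung in 7 of 7 tumors, and Bcl2l11 tumors lie on both sides of a narrow normal range.

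Among the prosurvival members, Mcl1 changed most. Mcl-1 is a short-lived protein that protects cells while it is being made. Mcl1 (ENSMUSG00000038612) stood at 8367, 10245, 10863, 11074 and 7262 normalized counts across normal lungs 1 to 5, and across the tumors its lowest value was 2116 (tumor 5), its median 2772 and its highest 6790.0 (tumor 7). The other tumors lay at or below 2987, and no tumor reached the lowest normal lung. The mean was 9562 ± 1670 (SD, n = 5) in normal lung and 3186 ± 1619 (SD, n = 7) in tumors, 3.001-fold lower, with a log2 difference of -1.68 (SE 0.25, 95% interval -2.22 to -1.14, limma adjusted p = 6.52e-05). Without tumor 7 the log2 difference was -1.88. The leukocyte and endothelial marker sums moved with Mcl1, low in tumors and highest among them in tumor 7, and their part in the result was not tested. The promoter of the tested member with the largest fall is shown as the 250 bases before its RefSeq start (GRCm38.p6, chr3:95658471-95658720, plus strand, 64.4% G or C). The bases after this start did not pass a check that they read in the direction of a GENCODE transcript of Mcl1, so the start is uncertain.
Mcl1 promoter: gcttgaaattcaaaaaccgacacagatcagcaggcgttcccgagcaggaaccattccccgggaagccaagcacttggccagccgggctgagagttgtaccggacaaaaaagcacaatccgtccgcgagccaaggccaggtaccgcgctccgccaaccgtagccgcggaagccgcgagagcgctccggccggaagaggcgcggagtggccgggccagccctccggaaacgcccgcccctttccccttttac

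Bcl2, the founding member and the target of venetoclax, fell as well. Bcl2 (ENSMUSG00000057329) stood at 976, 974, 1142, 758 and 782 normalized counts across normal lungs 1 to 5, and across the tumors ranged from 200.3 (tumor 3) through a median of 419.8 to 821 (tumor 7). Tumor 7 fell inside the normal range and the other 6 tumors lay below it. The means were 926 ± 159 (SD, n = 5) and 406 ± 208 (SD, n = 7), 2.28-fold lower in tumors, and the log2 difference was -1.32 (SE 0.30, 95% interval -1.96 to -0.68, limma adjusted p = 0.00176). The difference was -1.51 without tumor 7. Of its exon bases, 6.09% overlap D630008O14Rik on the opposite strand, and use of the strand in counting is not given in the sources used here.

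Bcl2l1, which encodes Bcl-xL, gave the smallest difference of the 3 prosurvival members tested. Bcl2l1 (ENSMUSG00000007659) stood at 3616, 3673, 4154, 4757 and 4250.2 normalized counts across normal lungs 1 to 5, and across the tumors ran from 2018 (tumor 1) through a median of 2601 to 4095 (tumor 3). Tumors 3 and 4 lay inside the normal range and the other 5 below it. The means were 4090.0 ± 467 (SD, n = 5) and 2899 ± 792 (SD, n = 7), with a log2 difference of -0.53 (SE 0.18, 95% interval -0.93 to -0.14, limma adjusted p = 0.0215). The call was lost without normal lung 4 (-0.48, adjusted p = 0.0563), without the trachea-titled tumors 1 and 7 (-0.36, adjusted p = 0.0665) and with every sample scaled to the same total (-0.33, adjusted p = 0.104).

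Bcl2l2, the gene of Bcl-w, was listed at 0 in all normal lungs and in 5 tumors. Tumors 1 and 6 had 0.633 and 0.674 normalized counts for Bcl2l2 (ENSMUSG00000089682), which is 1 read each and under the 3-read floor. By GENCODE M21, 13.3% of its exon bases also belong to Gm20521 on the same strand, a gene model that joins Bcl2l2 to its neighbour Pabpn1. Most of the exon bases of Bcl2l2 are unshared in that release. The annotation used in counting is not given and its overlaps may differ, so the count is uncertain. The values of 0 therefore cannot be read as absence of the transcript. Gm20521 and Pabpn1 were looked up after this row had been seen. Gm20521 averaged 99.1 ± 41.4 normalized counts in normal lung against 194 ± 60.6 in tumors (log2 difference 1.001, limma adjusted p = 0.00971), and Pabpn1 had 253 ± 23.7 and 483 ± 152 (0.87, limma adjusted p = 0.00335).

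Set against exon length, the make-up of the prosurvival transcripts can be given sample by sample. Exon length here counts every annotated exon of a gene and may differ from that of the transcripts present. Shares and ratios between genes depend on that choice. Mcl1 made up 73.2%, 76.8%, 75.5%, 74.3% and 67.7% of the summed per-kilobase level of Mcl1, Bcl2l1 and Bcl2 in normal lungs 1 to 5. In tumors its share ran from 44.1% (tumor 4) through a median of 51.7% to 77.9% (tumor 7). Tumor 7 alone lay above the normal range, and the other 6 lay below it. The share of Bcl2l1 averaged 23.8% ± 3.502 in normal lung and 41.1% ± 11.9 in tumors, with 6 tumors above the normal range and tumor 7 (18.6%) below it. The share of Bcl2 was 2.70% ± 0.488 in normal lung and 2.72% ± 0.918 in tumors. These ratios carry no test, since they combine genes chosen with earlier results known.

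**Figure D2:**
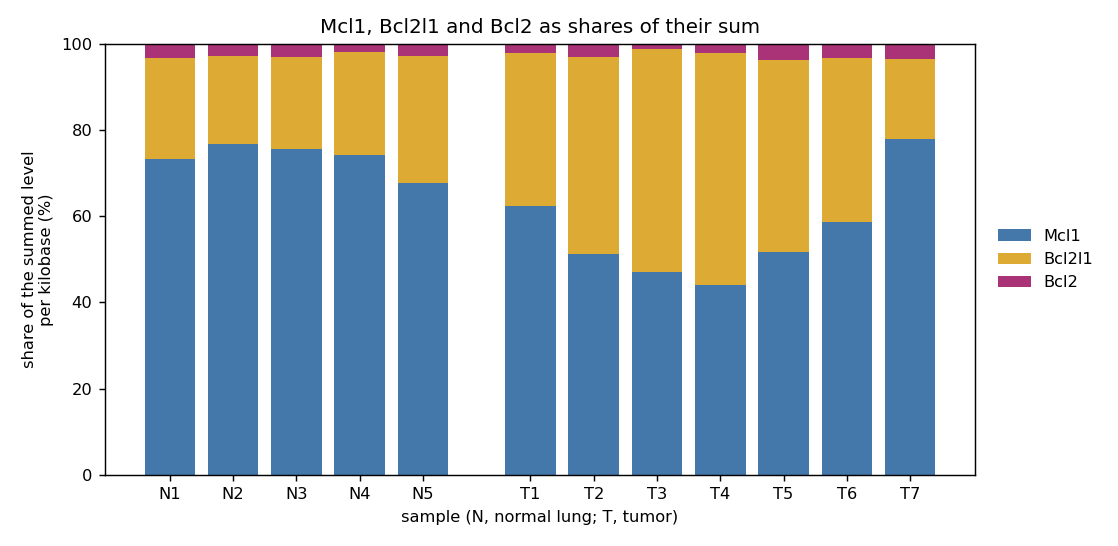
Share of Mcl1, Bcl2l1 and Bcl2 in their summed level per kilobase of exon (%), as stacked bars for normal lungs 1 to 5 (N) and tumors 1 to 7 (T). Mcl1 takes 67.7% to 76.8% in normal lung and 44.1% to 62.3% in tumors 1 to 6, while tumor 7 stands at 77.9%.

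Bok, the effector-like member with a row in the table, showed the largest difference of the 8 members tested. Bok is bound weakly or not at all by the prosurvival proteins and is held low by degradation after ubiquitination. Bok (ENSMUSG00000026278) stood at 445, 467, 369.9, 481 and 329.9 normalized counts across normal lungs 1 to 5, and across the tumors ran from 1114 (tumor 7) through a median of 1941 to 5361 (tumor 2). Tumors 2, 3 and 4 lay at 3739.5 or above, tumors 1, 5, 6 and 7 at 1941 or below, and all 7 above the highest normal lung. The means were 418 ± 65.4 (SD, n = 5) and 2895 ± 1713 (SD, n = 7), 6.92-fold higher in tumors, with a log2 difference of 2.57 (SE 0.37, 95% interval 1.79 to 3.36, limma adjusted p = 4.32e-05). Over the 23 alternatives the Bok difference stayed between 2.39 and 2.95. The neuroendocrine and proliferation marker sums were likewise above normal lung in 7 of 7 tumors, and their part in the result was not tested. The promoter of the tested member with the largest rise is shown from the same source (GRCm38.p6, chr1:93685325-93685574, plus strand, 55.2% G or C). As for Mcl1, the bases after this start did not pass the check against GENCODE transcripts of the gene, so the start is uncertain.
Bok promoter: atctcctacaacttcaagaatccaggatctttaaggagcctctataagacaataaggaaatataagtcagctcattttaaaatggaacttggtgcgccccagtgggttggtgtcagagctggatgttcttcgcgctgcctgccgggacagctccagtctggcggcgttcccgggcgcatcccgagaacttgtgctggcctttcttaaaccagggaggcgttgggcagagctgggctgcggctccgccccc

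Of the BH3-only members, Bid rose. Bid is cut by caspase-8, which links death receptors to the mitochondria. Bid (ENSMUSG00000004446) stood at 294, 319, 379.5, 330.1 and 216 normalized counts across normal lungs 1 to 5, and across the tumors ran from 342 (tumor 2) through a median of 460.5 to 537 (tumor 1). Tumor 2 lay inside the normal range and the other 6 tumors above it. The means were 308 ± 59.9 (SD, n = 5) and 452 ± 61.6 (SD, n = 7), with a log2 difference of 0.56 (SE 0.17, 95% interval 0.19 to 0.93, limma adjusted p = 0.0119). Among the tumors Bid was the steadiest member, with an SD of 0.21 on the log2 scale, at percentile 4.16 of all genes tested, although without tumor 7 Mcl1 (0.20) was steadier than Bid (0.23). Its count is uncertain because 17.7% of its exon bases overlap Bcl2l13 on the opposite strand.

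Bad, whose protein is kept inactive by growth factor signalling through phosphorylation, fell. Bad (ENSMUSG00000024959) stood at 625.5, 791, 759, 1134 and 609 normalized counts across normal lungs 1 to 5, and across the tumors ran from 222 (tumor 2) through a median of 472 to 509.6 (tumor 3). All 7 tumors lay below the lowest normal lung. The means were 784 ± 212 (SD, n = 5) and 431 ± 102 (SD, n = 7), 1.82-fold lower in tumors, with a log2 difference of -0.87 (SE 0.23, 95% interval -1.36 to -0.38, limma adjusted p = 0.00500). The count is uncertain, since 20.49% of the exon bases overlap Gpr137 on the opposite strand.

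Bmf, a BH3-only gene tied to loss of attachment and to the cytoskeleton, also fell. Bmf (ENSMUSG00000040093) stood at 1653, 1665, 1706, 1821 and 1716 normalized counts across normal lungs 1 to 5, and across the tumors ran from 185 (tumor 2) through a median of 959.7 to 1299.9 (tumor 6). Normal lungs were tightly grouped, all 7 tumors lay below them, and tumor 2 lay well below the next tumor, at 659. The means were 1712 ± 66.3 (SD, n = 5) and 862 ± 385 (SD, n = 7), 1.99-fold lower in tumors, with a log2 difference of -1.20 (SE 0.39, 95% interval -2.03 to -0.36, limma adjusted p = 0.0165) that was -0.86 without tumor 2. The SD among tumors was 0.97 on the log2 scale, at percentile 71.7 of all genes tested, against 0.05 among normal lungs. That spread rests on tumor 2: without it the SD was 0.42, at percentile 35.0, below the 0.81 of Bok among the same 6 tumors.

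Y-linked genes, listed as a check on sample make-up, were present in normal lungs 1, 2, 4 and 5 and in tumor 1, and summed to 0 in normal lung 3 and to at most 8.08 in tumors 2 to 7. A further limma fit took the mean of their log2(normalized count + 1) values as a covariate. In that limma fit Bid (0.53, adjusted p = 0.0793), Bad (-0.76, adjusted p = 0.0583) and Bmf (-0.98, adjusted p = 0.136) no longer passed, while Bok, Mcl1, Bcl2 and Bcl2l1 still did.

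The promoters of the members were read for a pair of motifs on both strands: the E-box CAGCTG, a sequence bound by basic helix-loop-helix factors, and the E2F sequence in the forms TTTGGCGC, TTTCCCGC, TTTGCCGC and TTTCGCGC. Among 16 RefSeq starts of the 10 named genes, CAGCTG occurred at 3, which were the 3 annotated starts of Bmf, and it occurs in 13.0% of 32851 promoters of the same length. An E2F sequence occurred at 1 start, of Bcl2l1, against 1.86% of all promoters. All 250 bases before that Bcl2l1 start lie in annotated exons. The CAGCTG of the Bmf start shown here lies 69 bases before the start and is in capitals (GRCm38.p6, chr2:118544588-118544837, minus strand, 55.6% G or C). Neither motif occurs in the Mcl1 and Bok stretches printed above, and a match or its absence describes only these letters.
Bmf promoter: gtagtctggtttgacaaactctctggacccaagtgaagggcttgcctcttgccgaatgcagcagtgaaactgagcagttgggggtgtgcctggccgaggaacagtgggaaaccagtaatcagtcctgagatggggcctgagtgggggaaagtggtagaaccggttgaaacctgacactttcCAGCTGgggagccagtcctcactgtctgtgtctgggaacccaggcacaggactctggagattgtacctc

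Bcl2l11, which encodes Bim, the BH3-only protein that binds every prosurvival member, was the tested member that was not called. Its log2 values lay wider apart in tumors than in normal lung, as did those of every other tested member except Bid. Bcl2l11 (ENSMUSG00000027381) stood at 1395, 1462, 1554, 1446 and 1446 normalized counts across normal lungs 1 to 5, and across the tumors ran from 1008 (tumor 5) through a median of 1589 to 2055 (tumor 7). Tumors 1, 3, 4 and 7 lay above every normal lung and tumors 2, 5 and 6 below every normal lung, so that no tumor lay within the normal range. The means were 1461 ± 57.8 (SD, n = 5) and 1564 ± 446 (SD, n = 7), and the log2 difference of 0.05 (SE 0.19, limma adjusted p = 0.847) had a 95% interval of -0.37 to 0.46. The sign turned without tumor 1 (-0.02), tumor 3 (-0.01), tumor 7 (-0.028) or the trachea-titled tumors 1 and 7 (-0.13). The SD on the log2 scale was 0.43 among tumors, at percentile 29.9 of all genes tested, and 0.06 among normal lungs.

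Relative to the prosurvival members, Bcl2l11 stood higher in tumors. The ratio of its per-kilobase level to that of Mcl1 was 0.0710, 0.0608, 0.0609, 0.0556 and 0.0848 across normal lungs 1 to 5, and 0.327, 0.190, 0.294, 0.304, 0.203, 0.159 and 0.129 across tumors 1 to 7. Every tumor was above every normal lung. The ratio to Bcl2 was 1.84 ± 0.287 in normal lung and 5.52 ± 3.49 in tumors, also above in 7 of 7. It divided the tumors into 9.53, 10.9 and 6.47 in tumors 1, 3 and 4 and 2.74 to 3.21 in tumors 2, 5, 6 and 7. The ratio to Bcl2l1 was 0.206 ± 0.0218 and 0.332 ± 0.155, above the normal range in 6 tumors and inside it in tumor 2 (0.214). These ratios were not tested, and the differences of Mcl1 and Bcl2 given above enter them.

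**Figure D3:**
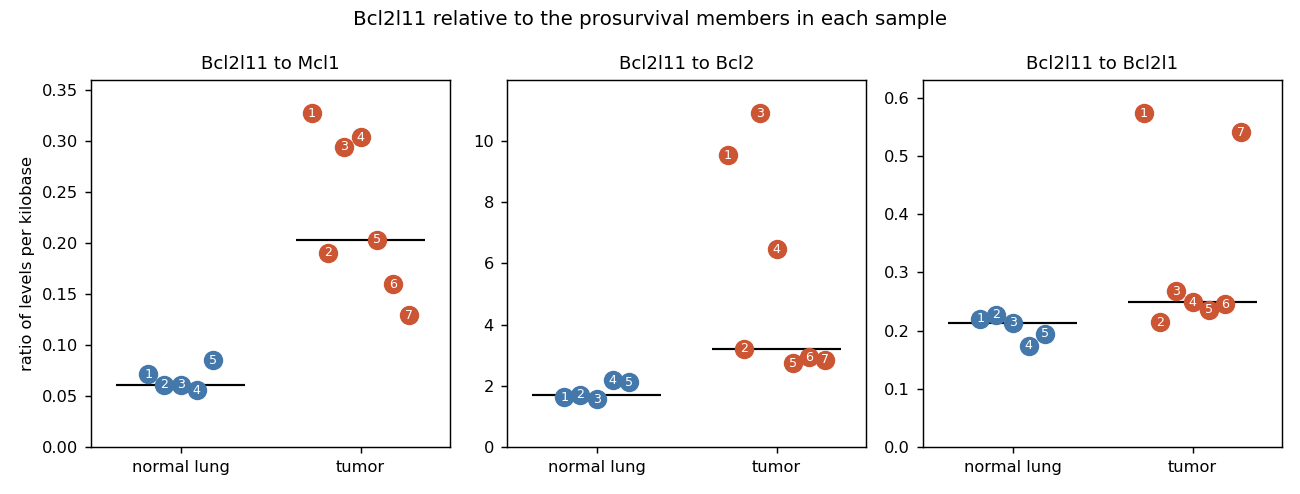
Ratio of the Bcl2l11 level per kilobase to that of Mcl1, Bcl2 and Bcl2l1 (linear axes from 0) in each normal lung (blue) and tumor (red), with sample numbers inside the points and the group median as a line. The ratio to Mcl1 is 0.129 or more in tumors and 0.0848 or less in normal lung, and the ratio to Bcl2l1 stands out in tumors 1 (0.574) and 7 (0.541).

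Per kilobase of exon, the order of the members' levels had another gene at its top in each group. Like the shares and ratios, this order depends on counting every annotated exon of a gene in its length. In normal lung the mean per-kilobase levels ran from Mcl1 (2798) and Bcl2l1 (892) through Bmf (326), Bad (306), Bok (227), Bcl2l11 (182) and Bcl2 (101.2) to Bid (86.7). The sample ranges of Mcl1, Bcl2l1 and Bmf did not overlap, whereas those of Bmf and Bad, Bad and Bok, Bok and Bcl2l11, and Bcl2 and Bid did. In tumors the order of the mean levels was Bok (1573), Mcl1 (932), Bcl2l1 (632), Bcl2l11 (195), Bad (169), Bmf (164), Bid (127) and Bcl2 (44.3). Bok stood below Mcl1, Bcl2l1, Bmf and Bad in normal lung and first in tumors, although its tumor range of 606 to 2913 overlapped that of Mcl1, 619 to 1987. Bcl2l1 (440 to 893) and Bcl2l11 (126 to 256) did not overlap in tumors, and Bid (96.3 to 151) lay above Bcl2 (21.9 to 89.7) without overlap.

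Tumors that share a title number were not alike in every member, although over all genes tested their fitted correlation was 0.30. The main fit treated the 7 tumors as separate. Fits that used this correlation, or averaged such tumors, also gave 2 members higher and 5 lower. Tumors 5, 6 and 7 share a number, and Mcl1 had 2116, 2987 and 6790.0 normalized counts in them, Bcl2 419.8, 436 and 821, and Bcl2l11 1008, 1118 and 2055. Tumor 7, titled trachea, was the highest of these 3 in all of Mcl1, Bcl2 and Bcl2l11, and the lowest in Bok, at 1114 against 1941 and 1848. In tumors 3 and 4, which share the other number, Mcl1 had 2772 and 2228 normalized counts, Bcl2 200.3 and 280.2, Bok 4794 and 3739.5, and Bcl2l11 1915 and 1589. The Ptprc level, a marker of leukocytes, was 231, 758 and 3291 in tumors 5, 6 and 7 and 7.93 and 80.8 in tumors 3 and 4, and its part in these differences was not tested. The cardiac muscle gene sum was 33146 in tumor 7, against at most 2121 in the other tumors and 182 to 3528 in normal lung. The fibroblast and smooth muscle gene sum was also highest in tumor 7, at 23815 against 9570 to 19682 in normal lung.

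Other genes with the pattern of Bcl2 or Bcl2l11 over the 12 samples were ranked by the root mean square difference between mean-centred log2 profiles, among 16517 genes of sufficient level. Nearest to Bcl2 were Fam69a (0.23), Zbtb32 (0.26), Arhgap4 (0.27), Nadk (0.29) and Rap2b (0.29). Nearest to Bcl2l11 were Atp5a1 (0.20), Dlat (0.20), Ssbp4 (0.20), Ndufv1 (0.21) and Srek1ip1 (0.21). These differences are in log2 units, and the profiles share their libraries. The measure is not scaled by spread, so genes that vary little lie near one another. Bcl2l11 itself had an SD of 0.43 among tumors and 0.06 among normal lungs on the log2 scale.

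The remaining Bcl2 family genes moved in both directions. Of 15 listed, 14 were tested, and 3 rose, 3 fell and 8 passed in neither direction, with a median log2 difference of -0.19. Over all genes tested 61.5% were called, a larger share than in this list. Hrk, a BH3-only gene of neurons, had 5.64 to 10.8 normalized counts in normal lung against 26.8 to 623 in tumors, highest in tumor 2 (log2 difference 2.90, limma adjusted p = 0.00226). Bcl2l15 rose by 2.48 from near the counting floor (4.98 ± 3.40 to 33.1 ± 19.5), and Bcl2l13, a mitochondrial member, by 0.47 (limma adjusted p = 0.0215). Bcl2l15 shares 20.97% of its exon bases with another gene on the same strand. Among those that fell, Bik, a BH3-only gene of the endoplasmic reticulum, went from 291 ± 36.0 to 107 ± 48.6 normalized counts (-1.54, limma adjusted p = 4.63e-04), below normal lung in 7 of 7 tumors.

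The other falls were in Bcl2a1a and Bcl2a1b, prosurvival genes of leukocytes that are near-identical copies with uncertain counts. Bcl2a1b lay near the counting floor in normal lung (2.30 to 9.69) and at 3.20 or below in tumors, with a log2 difference of -1.96 (limma adjusted p = 0.00242). Bcl2a1a had a log2 difference of -3.20 (limma adjusted p = 0.0242), and tumor 7, at 168, was above the highest normal lung, at 131. The call on Bcl2a1a was lost without normal lung 3 (-2.98, adjusted p = 0.0560), without normal lung 4 (-3.09, adjusted p = 0.0518), in edgeR (-0.83) and in DESeq2 (-0.94). The effector gene Bax averaged 338 ± 90.2 normalized counts in normal lung against 433 ± 99.1 in tumors (0.37, limma adjusted p = 0.146), and passed without the trachea-titled tumors (0.52, adjusted p = 0.0438). Bbc3 (Puma), a BH3-only gene induced by the tumor suppressor Trp53, had 880.3 ± 100.8 and 1112 ± 324 (0.29, limma adjusted p = 0.198). Pmaip1 (Noxa), a partner of Mcl-1 and another target of Trp53, had 322 to 515 normalized counts in normal lung, 29.8 to 253 in tumors 1 to 6 and 2087 in tumor 7 (-1.06, limma adjusted p = 0.222). Without tumor 7 Pmaip1 did pass, at -1.62 (limma adjusted p = 0.00837), and in edgeR its sign turned (0.30).

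Downstream of the mitochondria, 5 of 12 tested genes of the apoptosome and caspase list rose, 3 fell and 4 passed in neither direction, with a median log2 difference of 0.37, while Diablo was below the level needed for a test. Of all genes tested 31.4% were higher and 30.1% lower, and 61.5% were called, close to the share of this list. Cycs, the gene of cytochrome c, rose by 1.08 (limma adjusted p = 0.0141; 0.65 and 0.226 with the Y-linked covariate), and Apaf1, its partner in the apoptosome, by 0.81 (limma adjusted p = 4.54e-04). Casp2 and Aifm1 also rose, by 0.67 and 0.61. Casp6, an executioner caspase, fell from 548 ± 78.6 to 132 ± 82.3 normalized counts (-2.26, limma adjusted p = 1.57e-04), and the mitochondrial nuclease gene Endog from 773 ± 178 to 203 ± 39.3 (-1.92). Htra2, the gene of a mitochondrial protease, fell by 0.79. Endog, Htra2 and Diablo share over 20% of their exon bases with other genes, so their counts are uncertain.

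Among 5 inhibitors of apoptosis, Birc5 and Birc6 rose, Birc3 and Xiap fell, and Birc2 passed in neither direction, with a median log2 difference of 0.18, where 61.5% of all genes tested were called. Birc5 encodes survivin, which also serves in cell division, and went from 63.3 ± 38.0 to 1170.4 ± 338 normalized counts (log2 difference 4.30, limma adjusted p = 5.20e-08). The sum of the proliferation markers, which do not include it, was above normal lung in the same 7 of 7 tumors, and its part in the Birc5 result was not tested. Birc6 rose by 0.85 and Birc3, an NF-kB target, fell by 3.16. Xiap, the direct inhibitor of caspases, fell by 0.63 (limma adjusted p = 0.0349). The Xiap call was lost without normal lung 1, 2, 3 or 4 and without tumor 4 or 7, at adjusted p between 0.0511 and 0.0739, and in 5 further alternatives.

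In the death receptor arm, through which Bid is activated, 9 of 11 genes fell, 0 rose, and Fasl and Tnfrsf1a passed in neither direction; over all genes tested 30.1% were lower. The median log2 difference of the arm was -1.69. Tnfsf10 (TRAIL) went from 5631 ± 1056 to 65.0 ± 71.8 normalized counts (log2 difference -6.84, limma adjusted p = 2.79e-08), and Fas from 967 ± 21.5 to 74.3 ± 60.3 (-4.14, limma adjusted p = 2.02e-05). Tnf, a cytokine of macrophages, fell by 3.46, and Cflar, the inhibitor of caspase-8, had a log2 difference of -2.73. Tnfrsf10b, at -0.94, lay just inside the threshold. Casp8, the protease that cuts Bid, went from 1110.3 ± 122 to 395 ± 264 normalized counts (-1.80, limma adjusted p = 0.00315), while Bid itself was higher in tumors. Leukocyte and endothelial marker sums were below normal lung in 7 of 7 tumors, and their part was not tested. Of the single leukocyte markers, Ptprc and Cd3e were not below normal lung in tumor 7.

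Of 12 tested genes for partners and turnover of the family proteins, 3 rose, 3 fell and 6 passed in neither direction, with a median log2 difference of 0.20, against 31.4% higher and 30.1% lower over all genes tested. Dynll1 and Dynll2 encode dynein light chains, named as anchors of Bim and Bmf at the cytoskeleton, and they went opposite ways. Dynll2 went from 5179 ± 586 to 9779 ± 1887 normalized counts (log2 difference 0.90, limma adjusted p = 1.29e-04), and Dynll1 from 917 ± 344 to 346 ± 70.5 (-1.35, limma adjusted p = 1.92e-04). For both genes the tumor values did not overlap normal lung, as for 38.4% of all genes tested. Vdac1, a channel of the outer mitochondrial membrane, rose by 0.64, and March5, the gene of a mitochondrial ubiquitin ligase, by 0.51. Itpr1, a calcium channel bound by Bcl2, had a log2 difference of -2.71 (limma adjusted p = 0.00385) but lay above normal lung in tumor 7, at 2094, and was not called in edgeR (-1.43, adjusted p = 0.102) or DESeq2 (-1.52, adjusted p = 0.0512). Bag1, a binding partner of Bcl2, fell by 0.99. Huwe1 and Usp9x, which destabilise and stabilise Mcl-1, had log2 differences of 0.24 (limma adjusted p = 0.171) and 0.38 (limma adjusted p = 0.0962).

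**Figure D4:**
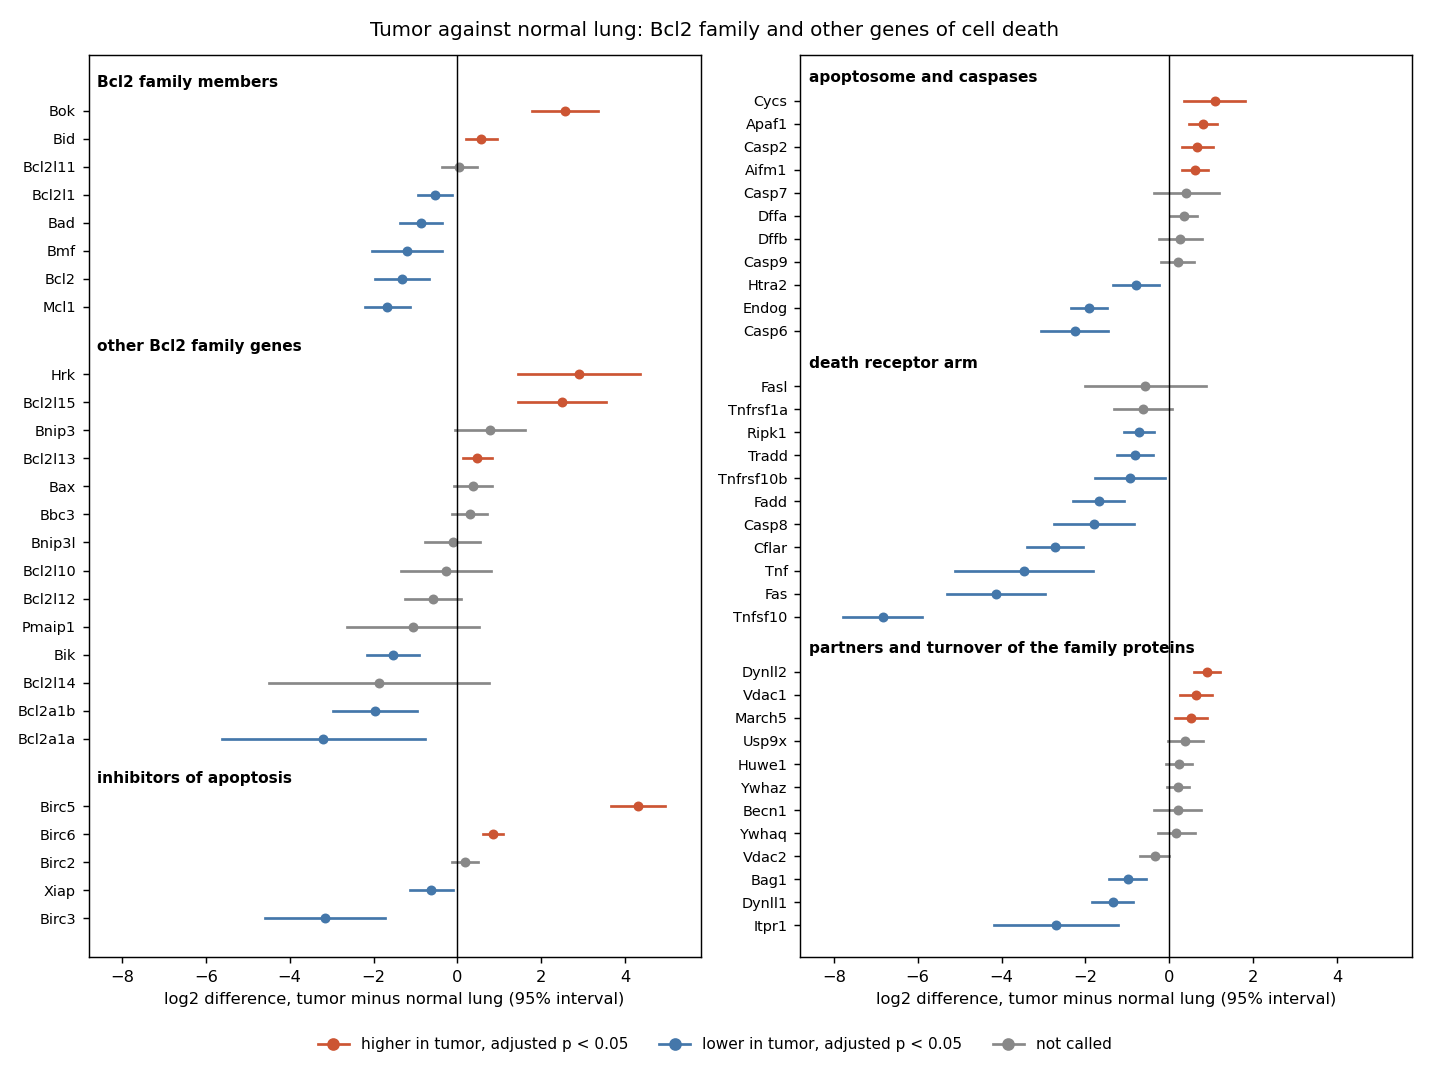
Log2 difference of tumor minus normal lung on the log2(normalized count + 1) scale, with its 95% interval, for the 8 members and 53 other genes of cell death by list (red, higher; blue, lower; grey, not called). Every point of the death receptor arm lies left of 0, while the intervals of Fasl and Tnfrsf1a cross it. The members spread from Bok at 2.57 to Mcl1 at -1.68.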

How the data were processed

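The table deposited by the authors gives a normalized read count signal for 30399 Ensembl genes in 12 samples. The submitters' processing notes name featureCounts, DESeq2 and the genome build GRCm39. The aligner, annotation and use of the strand are not given in the sources used here. In 11 of the 12 columns 100% of the values were whole multiples (tolerance 0.1) of the worth of 1 read, which gave the depths. In tumor 3 that worth was too near 1 to tell. None of 25 same-group pairs agreed within sampling noise. Symbols came from GENCODE M21 (29982 identifiers matched), exon lengths and overlaps from the same release, and promoters from RefSeq (GRCm38.p6), with no coordinates converted.

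Genes averaging 1 or more over the samples were fitted on the log2(value + 1) scale in limma 3.58.1 (lmFit, eBayes with trend, R 4.3.3) and Benjamini-Hochberg adjustment, without a fold limit. The log2(value + 1) scale understates the change of low genes. edgeR 4.0.16 (quasi-likelihood, TMM) and DESeq2 1.42.0 were run as alternatives on the recovered whole reads of 11 samples, without tumor 3. At an adjusted p under 0.05, edgeR called 6384 genes higher and 4821 lower of 18308, and DESeq2 7450 and 6023 of 24382. Figures and ratios used Python 3.11.15, numpy 2.4.6, pandas 2.3.3 and matplotlib 3.10.9. Groups follow the tissue label, and replicate numbers follow the order of listing and pair nothing. Named were all members, up to 4 of the largest called changes per list with those needed for a count, and the 5 genes nearest to Bcl2 and to Bcl2l11. The members and lists were chosen with earlier results of these data known. Bak1, Bcl2a1d and Fbxw7 were not analysed here, and some listed genes that enter the counts are not reported here by name.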

Additional observations from a re-analysis of the deposited data

Results flagged for a closer look

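A sample was set apart where its gap to the nearest other sample of its group was large against the range of the group (Dixon's criterion on log2 values, above its 95% limit). Of 62 groups of values compared, 7 met it, and about 3.1 would by chance. Among the members, Mcl1 in tumor 7 was the highest tumor at 12.73, with the others between 11.05 and 11.54. Bad in tumor 2 was the lowest tumor at 7.80, with the others from 8.55 to 8.996, and Bmf in tumor 2 was the lowest at 7.54, with the others from 9.37 to 10.35.

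Among the other genes of the pathway, Cycs in tumor 2 was the highest tumor at 7.83, with the others from 6.16 to 6.75. Tnfsf10 in tumor 7 was the highest tumor, at a log2 value of 7.83 against 4.45 to 5.85 in the others. Dynll2 in normal lung 4 was the highest normal lung at 12.60, with the others from 12.22 to 12.31, and Bbc3 in normal lung 1 was the highest at 10.05, with the others from 9.67 to 9.76.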

How the results depend on the processing

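The 23 alternatives changed the pseudocount, the filter, the scaling, the treatment of tumors sharing a title number, the Y-linked covariate, the tool, or left out samples. Over 31 genes they gave 710 values, of which 676 kept direction and side of the threshold, 24 lost the call, 5 gained it and 5 changed sign. Bcl2, Mcl1 and Bok kept theirs in all 23. With the Y-linked level as covariate, 1 member was higher and 3 were lower, against 2 and 5, and the cause was not tested. Scaling every sample to the same total moved the median of all genes from 0.04 to 0.24 and gave 21 other pathway genes higher and 17 lower, against 13 and 20, and Bax (0.57) and Bbc3 (0.50) then passed. edgeR, with a median of 0.14, gave 14 higher and 14 lower, and DESeq2, with a median of 0.18, 13 and 16. Signs turned for Bcl2l11, which was called in no alternative, without the trachea-titled tumors (-0.13), tumor 1 (-0.02), tumor 3 (-0.01) or tumor 7 (-0.028), and for Pmaip1 in edgeR (0.30, adjusted p = 0.776).

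Bcl2l2 and Diablo were below the level needed for a test, and Bcl2a1b and Bcl2l15 lay near the counting floor. The spread of members among the tumors was also taken without each tumor in turn, an alternative chosen after seeing the data. The 2 groups are the only contrast, so tissue, Y-linked level and cell make-up are partly tied to it. Replicate numbers only name samples. No paired analysis was possible because the labels give no pairs of tumor and normal lung.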
